A study of Homo sapiens with 9 samples.

Results

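INHBE encodes the activin βE subunit, a secreted protein made mainly by hepatocytes, and it had one of the largest increases in signal of all genes in HepG2 cells given a PPARα agonist. It is described here with its relatives and counterparts in secreted liver signalling: the activin subunits INHBA, INHBB and INHBC, the activin antagonists FST and FSTL3, and the hormone FGF21. The group was chosen from the measured 24 h change of INHBE in these arrays, which was among the largest rises, and the other members were added by family and function. INHBE values are therefore given as a description, without a test, while the other 6 genes are read from the fit over all genes. The 7 genes are 7 of 19775 genes measured with a single symbol, and they have 12 probe sets on the array.

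HepG2 is a human hepatoma cell line. The cells had been treated with GW7647, a synthetic PPARα agonist, at 100 nM for 24 h (3 arrays) or for 6 h (3 arrays), or with DMSO vehicle (3 arrays), and all were grown in medium without phenol red but with serum. A single vehicle group serves both comparisons, and no label says how long it was incubated, so ligand exposure and time in culture cannot be told apart. HepG2 is one hepatoma line, so the values describe that line and not normal liver. The labels number the replicates without saying that they were separate cultures, so p-values measure only the spread between these arrays, which may be technical. Each value is a log2 signal of biotin-labelled RNA from whole cultures, in which more expressing cells and more RNA per cell cannot be told apart. Levels are compared within a probe set and not between genes.

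Activins and inhibins belong to the TGF-β family. Each is a disulfide-linked dimer of β subunits, or of a β subunit with the α subunit INHA, cut from a larger precursor before secretion. Activins bind type II receptors (ACVR2A, ACVR2B), which phosphorylate a type I receptor such as ACVR1B (ALK4) or ACVR1C (ALK7), which in turn phosphorylates SMAD2 and SMAD3. Follistatin (FST) and follistatin-like 3 (FSTL3) bind activins A and B outside the cell and keep them from their receptors. Both are themselves genes that activin can raise. Whether they bind dimers of the subunits of INHBC or INHBE was not examined here. FGF21 is a hormone of fasting and of nutrient stress that acts through FGF receptors with the coreceptor β-klotho (KLB); in mouse liver it is a well known target of PPARα, and in many cell types of ATF4, the transcription factor of the amino acid and endoplasmic reticulum stress response.

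The FGF21 promoter is shown because it holds an element of that stress response. RefSeq (GRCh38.p14) places the following 150 bases directly upstream of the FGF21 start site at chr19:48755374-48755523, plus strand. Capitals mark a match, on the opposite strand, to TGATGNAA, the C/EBP-ATF response element through which ATF4 and C/EBP proteins are known to act.
FGF21: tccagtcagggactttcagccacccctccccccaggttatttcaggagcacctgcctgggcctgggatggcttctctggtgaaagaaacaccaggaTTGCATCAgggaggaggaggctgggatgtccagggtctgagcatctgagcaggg
The window searched, on both strands, ran from 250 bases before to 50 bases after each RefSeq start site, and TGATGNAA was in 3.67% of 27305 promoters. Promoters of 6 of the 7 genes, all but INHBE, were in the table and searched, and of these 6 FGF21 was the 1 that held the element. Of 22 promoters of a list of ATF4 and amino acid response genes in the table, 4 held it (18.2%). In 3 of these the element lay upstream of the start site, as it does in FGF21, and they are printed, each in its gene's sense, to set the FGF21 element beside those of known stress genes.
FGF21, chr19:48755460-48755487, plus strand: aacaccaggaTTGCATCAgggaggagga
ASNS, chr7:97872459-97872486, minus strand: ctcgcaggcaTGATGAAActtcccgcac
ATF3, chr1:212565206-212565233, plus strand: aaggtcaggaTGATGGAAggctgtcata
CHAC1, chr15:40953252-40953279, plus strand: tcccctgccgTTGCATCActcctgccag
The capitals again mark the element, which begins 54 bases upstream of the start site in FGF21, 68 in ASNS, 191 in ATF3 and 209 in CHAC1. A strict match to the direct repeat bound by PPARα with RXR was in 0.308% of all promoters and in 0 of the 6 searched, the cyclic AMP element TGACGTCA in 1.98% and in 0 of the 6, and the AP-1 site TGANTCA in 7.76% and in 1, that of FST. The AP-1 site was also in 4 of the 22 promoters of the ATF4 list (18.2%), the same count as TGATGNAA. A match describes the letters of the window and does not show binding, and 250 bases do not cover distant elements.

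The RNA carried hepatocyte transcripts, since 10 of 10 measured hepatocyte markers, among them ALB, APOA1 and TTR, were above the array's upper quartile on all 9 arrays. Their mean log2 signal ran from 13.47 to 13.50 on the 24 h arrays, from 13.56 to 13.58 on the 6 h arrays and from 13.60 to 13.64 on the vehicle arrays, and 2 of the 10 fell at 24 h. Of 24 markers of other liver or blood cell types, 6 were above the upper quartile (COL1A1, ACTA2, PECAM1, KRT19, SOX9 and EPCAM) and 3 were below the lower quartile. Of these 24, 1 rose at 24 h, none rose at 6 h and 1 fell at 6 h. Over all genes 5.38% rose and 2.80% fell at 24 h, and 1.64% rose and 1.91% fell at 6 h. The 8 markers of stellate cells and fibroblasts, which can make activin A and follistatin, averaged 6.23 to 6.30 on the 24 h arrays, 6.23 to 6.28 on the 6 h arrays and 6.19 to 6.30 on the vehicle arrays. The labels name HepG2 cells alone, so these signals are read from that line and do not show that such cells were present. The part of these markers in the results was not tested. The arrays were alike, with a correlation over all genes, each read by its brightest probe set, of 0.997 to 0.999 within groups and 0.995 to 0.998 between groups. As a yardstick for the levels below, the lower quartile of log2 signal on an array was 4.14 to 4.21, the median 5.61 to 5.68 and the upper quartile 7.65 to 7.73.

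INHBE had the largest change of the 7 genes. Its log2 signal was 9.04, 9.14 and 8.94 on the 24 h arrays, 9.01, 8.94 and 9.12 on the 6 h arrays, and 7.26, 7.08 and 7.16 on the vehicle arrays (probe set 210587_at). Every treated array lay above every vehicle array, and the 24 h and 6 h arrays covered nearly the same range. The gene stood below the upper quartile of the vehicle arrays and above it at both times of treatment. Group means were 9.04 ± 0.10 at 24 h, 9.02 ± 0.09 at 6 h and 7.17 ± 0.09 with vehicle (SD, n = 3 each). The log2 change against vehicle was 1.87 ± 0.07 (SE) at 24 h, 3.66-fold higher, and 1.86 ± 0.07 at 6 h, 3.62-fold higher. Between the times it was 0.01 ± 0.07, with a 95% confidence interval of -0.15 to 0.18. Ordered by size among all genes, the INHBE change was rank 3 of the rises at 24 h and rank 9 at 6 h. The 24 h and 6 h means thus differed by less than the spread between arrays.

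**Figure D1:**
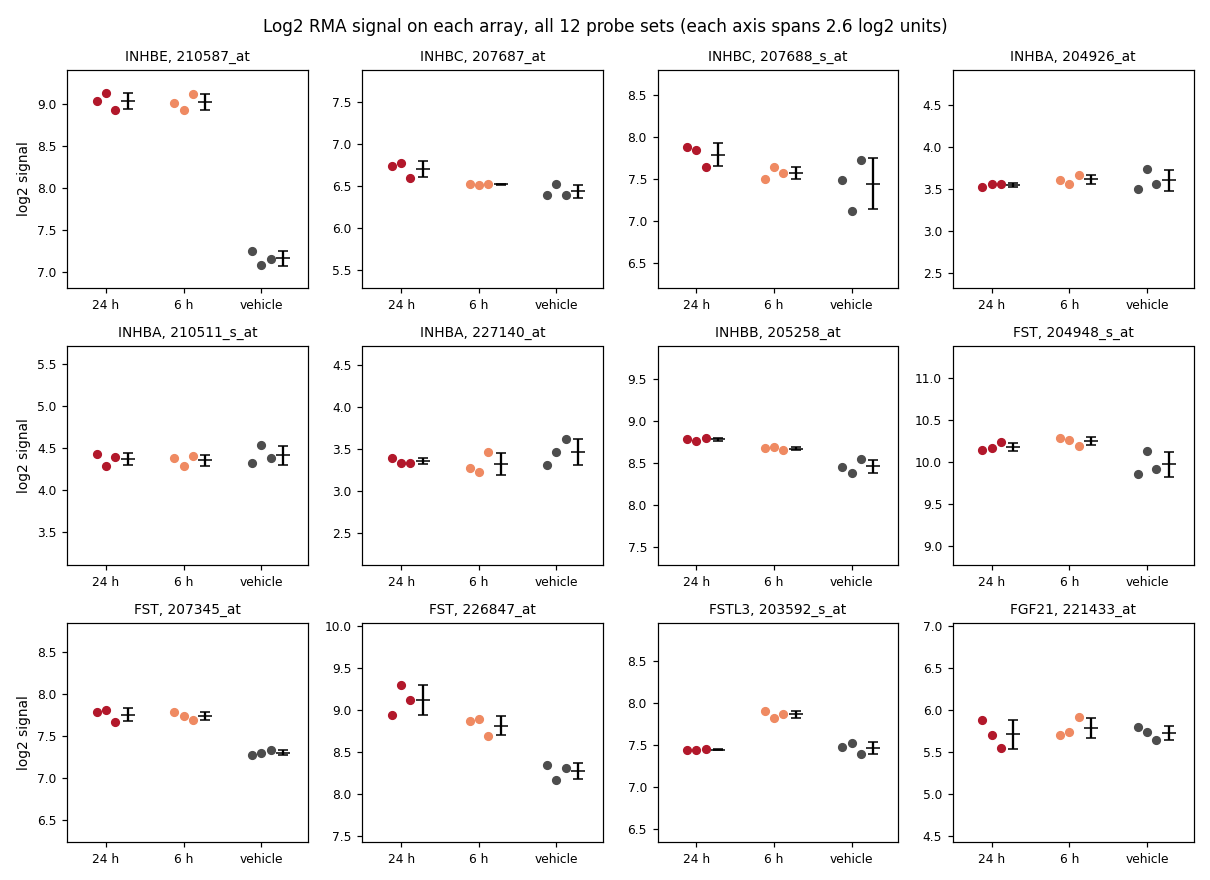
Log2 signal on each array for the 12 probe sets of the 7 genes, 1 panel each, with points for arrays and bars for the mean ± SD of 3 arrays, in the order 24 h GW7647, 6 h GW7647 and vehicle. INHBE points sit between 8.94 and 9.14 in both treated groups and between 7.08 and 7.26 with vehicle, FSTL3 is high at 6 h alone, and FGF21 points of the 3 groups overlap.

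INHBC encodes βC, the subunit most like βE and also made mainly in liver, and in the RefSeq gene table it is the neighbour of INHBE on chromosome 12. It did not share the size of the INHBE change. Its reported probe set (207688_s_at, the one with the highest mean) read 7.89, 7.85 and 7.64 at 24 h, 7.50, 7.64 and 7.57 at 6 h, and 7.49, 7.12 and 7.73 with vehicle. The vehicle arrays spanned a wide range that took in all 6 h arrays and overlapped the 24 h arrays. The log2 change was 0.35 ± 0.13 at 24 h (limma, adjusted p = 0.135) and 0.12 ± 0.13 at 6 h (adjusted p = 0.693), and 0.22 between the times (adjusted p = 0.315). The 24 h value rested on the vehicle arrays, with 0.49 without vehicle replicate 3 (adjusted p = 0.0296) and 0.18 without vehicle replicate 2 (adjusted p = 0.297). Without vehicle replicate 2 the 6 h value was -0.04. The second INHBC probe set, 207687_at, was tighter: 6.75, 6.78 and 6.60 at 24 h, 6.53, 6.52 and 6.53 at 6 h, and 6.40, 6.53 and 6.40 with vehicle. All its 24 h arrays lay above all vehicle arrays. In the fit over 41091 probe sets it rose by 0.27 ± 0.07 at 24 h, or 1.20-fold (adjusted p = 0.0394), and had 0.08 at 6 h (adjusted p = 0.629). This call was lost when any 1 of 7 arrays was left out (adjusted p up to 0.129), so the 24 h rise of INHBC was small and rested on few arrays.

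INHBB, which encodes the βB subunit of activin B, rose at 24 h by a small and evenly measured amount. The log2 signal was 8.79, 8.77 and 8.80 at 24 h, 8.68, 8.69 and 8.66 at 6 h, and 8.46, 8.38 and 8.55 with vehicle (205258_at). The 3 groups did not overlap, and they lay in the order 24 h, 6 h, vehicle from high to low. INHBB rose by 0.32 ± 0.06 at 24 h, or 1.25-fold with a 95% confidence interval of 1.15 to 1.36 (limma, adjusted p = 0.00530), and this held with each array left out in turn (adjusted p up to 0.0218). At 6 h the change was 0.21 ± 0.06 and missed the threshold (adjusted p = 0.0654), although it passed with 4 other settings, quantile normalization among them (adjusted p = 0.0356). The difference between the times was 0.11 ± 0.06 (adjusted p = 0.257). Its rise at 24 h was thus 1.25-fold, where INHBE was 3.66-fold higher.

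INHBA, the βA subunit of activin A, was near or below the lower quartile of the array throughout. Its reported probe set (210511_s_at) read 4.42, 4.28 and 4.39 at 24 h, 4.37, 4.28 and 4.40 at 6 h, and 4.32, 4.53 and 4.37 with vehicle, and the groups overlapped. The log2 changes were -0.04 at 24 h (adjusted p = 0.795), -0.06 at 6 h (adjusted p = 0.754) and 0.01 between the times (adjusted p = 0.934). The other 2 INHBA probe sets lay between 3.23 and 3.75 on all arrays, and none of the 3 passed in any comparison. At such signals a real change can be compressed, so little can be said of INHBA in either direction. INHA, the inhibin α subunit, had changes of 0.35 ± 0.11 at 24 h (adjusted p = 0.0707) and 0.05 at 6 h (adjusted p = 0.855).

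FST encodes follistatin, and its 3 probe sets all read higher in treated than in vehicle arrays without overlap, but differed in size. The probe set with the highest signal (204948_s_at) read 10.15, 10.17 and 10.24 at 24 h, 10.29, 10.27 and 10.20 at 6 h, and 9.86, 10.14 and 9.92 with vehicle. Vehicle replicate 2 was close to the treated arrays, and the change missed the threshold, at 0.21 ± 0.07 at 24 h (adjusted p = 0.110) and 0.28 ± 0.07 at 6 h (adjusted p = 0.0661). Without that array both passed (0.29, adjusted p = 0.0158 at 24 h, and 0.36, adjusted p = 0.0146 at 6 h).

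The second FST probe set (207345_at) read 7.78, 7.81 and 7.66 at 24 h, 7.78, 7.74 and 7.69 at 6 h, and 7.27, 7.30 and 7.33 with vehicle. It rose by 0.45 ± 0.06 at 24 h (adjusted p = 0.00186 over all probe sets) and by 0.44 ± 0.06 at 6 h (adjusted p = 0.00495), and both held with each array left out. The third (226847_at) read 8.93, 9.30 and 9.11 at 24 h, 8.87, 8.88 and 8.68 at 6 h, and 8.34, 8.16 and 8.30 with vehicle. It rose by 0.85 ± 0.10 at 24 h, or 1.80-fold with a 95% confidence interval of 1.55 to 2.08 (adjusted p = 6.52e-04), and by 0.54 ± 0.10 at 6 h, or 1.46-fold (adjusted p = 0.0166). Leaving out vehicle replicate 2 or 6 h replicate 1 or 2 ended the 6 h call (adjusted p up to 0.0925). FST therefore rose by 2 of its 3 probe sets at both times, and by its brightest one it was not called.

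FSTL3, the other follistatin-type antagonist, rose at 6 h, and its 24 h arrays lay inside the vehicle range. Its single probe set (203592_s_at) read 7.44, 7.43 and 7.45 at 24 h, 7.91, 7.82 and 7.86 at 6 h, and 7.48, 7.52 and 7.39 with vehicle. The 6 h arrays lay above all others. The change at 6 h was 0.40 ± 0.06, or 1.32-fold with a 95% confidence interval of 1.22 to 1.44 (limma, adjusted p = 0.00270; up to 0.0210 with 1 array left out). At 24 h it was -0.02 ± 0.06 (adjusted p = 0.896). FSTL3 was lower at 24 h than at 6 h by a tested difference of -0.42 ± 0.06 (adjusted p = 5.80e-04).

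FGF21 showed no change that these arrays could detect. The log2 signal was 5.87, 5.70 and 5.54 at 24 h, 5.70, 5.73 and 5.91 at 6 h, and 5.79, 5.73 and 5.64 with vehicle (221433_at), near the array's median, and all groups overlapped. The fold against vehicle was 0.988 at 24 h with a 95% confidence interval of 0.862 to 1.13 (adjusted p = 0.941), and 1.04 at 6 h with an interval of 0.910 to 1.20 (adjusted p = 0.800). The difference between the times was -0.08 (adjusted p = 0.654). The intervals leave room for a rise of up to 1.13-fold at 24 h and 1.20-fold at 6 h on this scale, and a miss of the threshold does not show that the level was constant. FGF21 is read here by 1 probe set, so no second one could be set beside it. Whether this probe set would register a larger rise was not tested, so the intervals bound its signal and not the amount of FGF21 RNA.

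**Figure D2:**
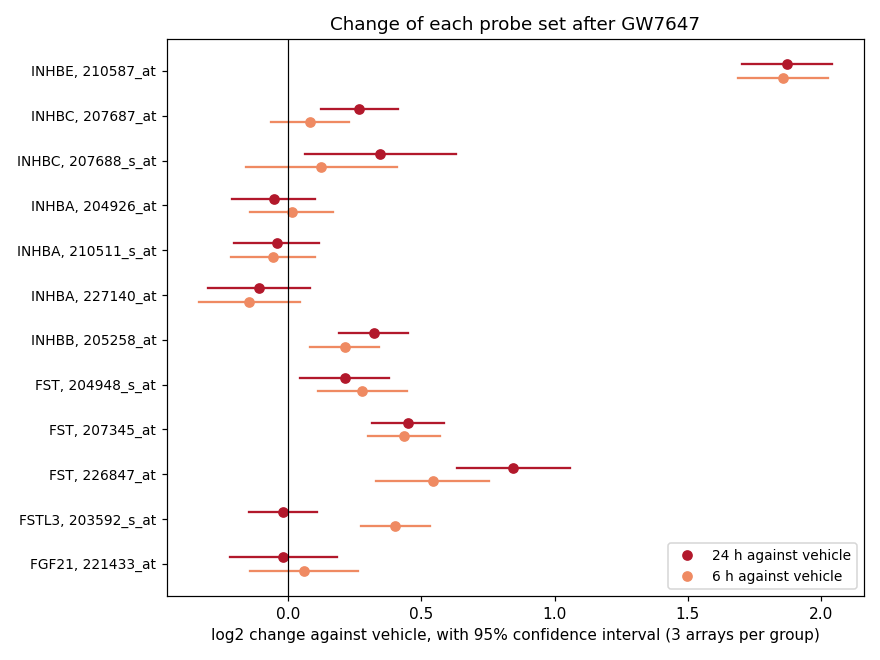
Log2 change of each probe set of the 7 genes against vehicle, with 24 h and 6 h GW7647 as separate markers and bars for the 95% confidence interval of the fit over 9 arrays. INHBE stands at 1.87 and 1.86, the FST probe sets between 0.21 and 0.85, FSTL3 at -0.02 at 24 h and 0.40 at 6 h, and FGF21 and INHBA around 0.

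Counted together, of the 6 genes other than INHBE 1 rose (INHBB), 0 fell and 5 were not called at 24 h against vehicle, where 5.38% of all genes rose and 2.80% fell. Over their 11 probe sets 4 rose and 0 fell, against 5.66% of all probe sets called in either direction. At 6 h against vehicle 1 rose (FSTL3) and 0 fell, where 1.64% of all genes rose and 1.91% fell, and 3 of the 11 probe sets rose, against 2.03% of all probe sets called. Between the times 0 rose and 1 fell (FSTL3), where 9.23% of all genes rose and 4.57% fell, and 1 of 11 probe sets fell, against 9.71% called. Arrays of the groups compared lay wholly apart for 2 of the 6 genes at 24 h against vehicle, 3 at 6 h against vehicle and 2 between the times, while over all genes this share was 23.0%, 20.8% and 33.0%. With 6 genes these counts are a description. The median log2 change of the 6 was 0.10 at 24 h and 0.17 at 6 h, against 0.0034 at 24 h and 0.0039 at 6 h over all genes.

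Genes that could carry an activin signal were measured alongside. Of 13 receptors and coreceptors of the TGF-β family, 0 were called at 24 h, where 5.38% of all genes rose and 2.80% fell. At 6 h 0 rose and 1 fell, where 1.64% of all genes rose and 1.91% fell. The receptor called was TGFBR2, the type II receptor of TGF-β, which fell by 0.26 ± 0.05 (adjusted p = 0.0171). This call was lost without vehicle replicate 3 or any 1 of the 6 h arrays (adjusted p up to 0.0809). At 24 h TGFBR2 had -0.15 ± 0.05 (adjusted p = 0.106). The activin type II receptors had small changes, at 0.15 for ACVR2A (adjusted p = 0.203) and -0.03 for ACVR2B (adjusted p = 0.885) at 24 h, and at 0.02 (adjusted p = 0.910) and -0.23 (adjusted p = 0.207) at 6 h. ACVR1B had 0.13 at 24 h (adjusted p = 0.224) and -0.04 at 6 h (adjusted p = 0.763), and its 6 probe sets ranged from -0.17 to 0.13 at 24 h and from -0.34 to -0.04 at 6 h. ACVR1C, the receptor ALK7, was low, with group means between 4.50 and 4.56 just above the lower quartile, and was not called (adjusted p = 0.996 at 24 h and 0.650 at 6 h). The receptor endoglin (ENG) was higher at 24 h than at 6 h by 0.25 (adjusted p = 0.0330), a call lost when any 1 of the 6 arrays compared was left out (adjusted p up to 0.128).

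The 16 measured genes listed here as ones that activin or TGF-β can raise, a list that also holds FST and FSTL3, had calls at both times. At 24 h 4 rose and 2 fell, where 5.38% of all genes rose and 2.80% fell. At 6 h 7 rose and 0 fell, where 1.64% rose and 1.91% fell, with a median log2 change of 0.04 at 24 h and 0.26 at 6 h. The 24 h total of 6 was 3 to 5 with 1 array left out, and it was lowest when the omitted array was 6 h replicate 1, 6 h replicate 3 or one of the 24 h arrays. BHLHE40, a transcriptional repressor of the clock and of hypoxia responses, rose by 1.04 ± 0.07 at 24 h (adjusted p = 1.05e-05) and 0.69 ± 0.07 at 6 h (adjusted p = 5.30e-04). CCN2, a matricellular protein, rose by 0.83 ± 0.06 at 24 h (adjusted p = 1.30e-05) and 0.37 ± 0.06 at 6 h (adjusted p = 0.00668). ID1 and ID3 were among the 7 rises at 6 h, and ID3 was among the 2 falls at 24 h. The ID3 call was lost in 2 of 9 fits with 1 array left out at 6 h and in 8 of 9 at 24 h. Many genes of the list, the ID genes among them, also answer signals other than activin.

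SKIL, a corepressor of SMADs that TGF-β signals switch on, was highest at 6 h. Its log2 signal averaged 8.46 ± 0.12 at 24 h, 9.26 ± 0.08 at 6 h and 8.03 ± 0.26 with vehicle (SD, n = 3 each), so that it rose by 0.43 ± 0.11 at 24 h (adjusted p = 0.0416) and 1.24 ± 0.11 at 6 h (adjusted p = 1.90e-04). Its 5 probe sets ranged from -0.01 to 1.24 at 6 h. The 24 h call was lost in 8 of 9 fits with 1 array left out (adjusted p up to 0.142). JUNB, an AP-1 subunit, rose by 0.66 ± 0.08 at 6 h (adjusted p = 0.00167) and was lower at 24 h than at 6 h by -0.77 ± 0.08 (adjusted p = 2.03e-04), a course like that of FSTL3. SMAD7, the inhibitory SMAD, had -0.11 at 24 h (adjusted p = 0.453) and 0.19 at 6 h (adjusted p = 0.221), and was lower at 24 h than at 6 h (-0.30, adjusted p = 0.0204), a call lost in 4 of 9 fits with 1 array left out (adjusted p up to 0.0910). Between the times 2 of the 16 rose and 7 fell, FSTL3, ID1 and ID3 among the latter, with a median of -0.17. Over all genes 9.23% rose and 4.57% fell.

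**Figure D3:**
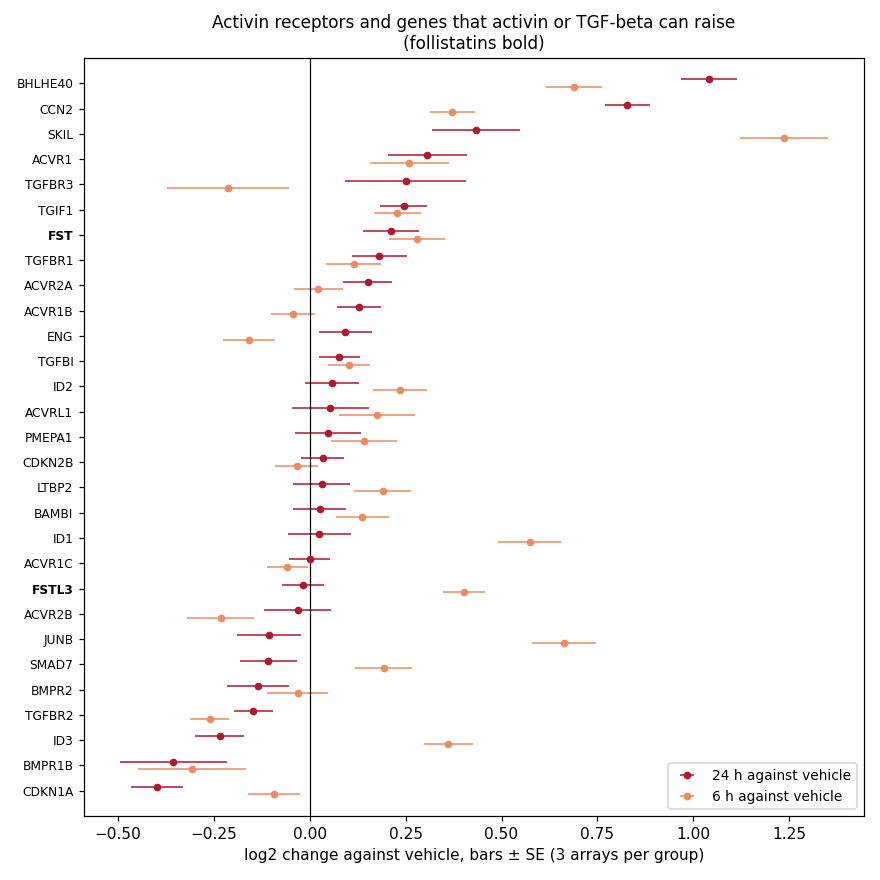
Log2 change against vehicle, with SE bars, of the receptors of the TGF-β family and of genes listed as ones that activin or TGF-β can raise, at 24 h and 6 h of GW7647. SKIL is at 0.43 and 1.24, JUNB at -0.11 and 0.66 and BHLHE40 at 1.04 and 0.69, receptors lie close to 0, and FST (its brightest probe set) and FSTL3 are in bold.

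The remaining parts of the pathway were called in few cases. Of 15 SMADs, their ubiquitin ligases and corepressors, SKIL alone was called against vehicle at either time, while between the times 4 rose, SMAD9, a SMAD of the BMP branch, by 0.49 ± 0.09 (adjusted p = 0.00558), and 2 fell, where 9.23% of all genes rose and 4.57% fell. This total of 6 ranged from 2, without 6 h replicate 2, to 7 with 1 array left out, and it was 3 without 24 h replicate 3. SKIL and SMAD9 held in all 9 such fits. Of 20 other TGF-β family ligands 1 rose at 24 h, where 5.38% of all genes rose and 2.80% fell, a count near that share of rises. At 6 h 0 rose, where 1.64% of all genes rose and 1.91% fell. The ligand called was GDF15, a stress hormone that acts on the hindbrain, at 0.40 ± 0.08 (adjusted p = 0.0126) at 24 h and 0.23 ± 0.08 (adjusted p = 0.182) at 6 h. Its 3 probe sets ranged from 0.05 to 0.40 at 24 h. Between the times BMP2 fell by 0.32 ± 0.07 (adjusted p = 0.0110), a call that needed both 6 h replicate 1 and 6 h replicate 3 (adjusted p up to 0.0515 with either left out). Of 12 other extracellular antagonists none was called against vehicle, and NOG fell between the times (-0.27 ± 0.08, adjusted p = 0.0464, lost in 8 of 9 fits with 1 array left out, adjusted p up to 0.173). Of 5 convertases that can cut such precursors 1 rose at 24 h, FURIN by 0.41 ± 0.07 (adjusted p = 0.00363). At 6 h FURIN had 0.18 ± 0.07 (adjusted p = 0.186). The shares of all genes called, given beside the ligands, apply to the 12 antagonists and 5 convertases too.

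FGF21 needs β-klotho, and KLB fell at 6 h. KLB averaged 11.03 ± 0.02 at 24 h, 10.67 ± 0.03 at 6 h and 11.04 ± 0.05 with vehicle (SD, n = 3 each). Its change was -0.01 ± 0.05 at 24 h (adjusted p = 0.928) and -0.37 ± 0.05 at 6 h (adjusted p = 0.00364), and it was higher at 24 h than at 6 h by 0.35 ± 0.05 (adjusted p = 0.00125). A second KLB probe set had -0.21 at 24 h and -0.60 at 6 h. FGFR4, the main FGF receptor of hepatocytes, had 0.21 at 24 h (adjusted p = 0.102) and -0.22 at 6 h (adjusted p = 0.138), and was higher at 24 h than at 6 h by 0.43 (adjusted p = 0.00227). The 13 measured FGF receptors, klothos, hormone-like FGFs and FGF feedback genes had 3 rises and 0 falls at 24 h, where 5.38% of all genes rose and 2.80% fell, and 1 rise and 1 fall at 6 h, where 1.64% rose and 1.91% fell.

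Sprouty genes, which dampen FGF signalling and are switched on by it among other growth signals, were 2 of those rises. SPRY1 rose by 0.52 ± 0.06 at 24 h (adjusted p = 6.18e-04) and had 0.23 ± 0.06 at 6 h (adjusted p = 0.0761). Its second probe set had 0.18 at 24 h. SPRY4 rose by 0.29 ± 0.06 at 24 h (adjusted p = 0.0114) and 0.56 ± 0.06 at 6 h (adjusted p = 5.30e-04). FGFR1 rose by 0.39 ± 0.06 at 24 h (adjusted p = 0.00360), but its 7 probe sets ranged from -0.16 to 0.39. At 6 h FGFR1 had 0.07 ± 0.06 (adjusted p = 0.661).

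**Figure D4:**
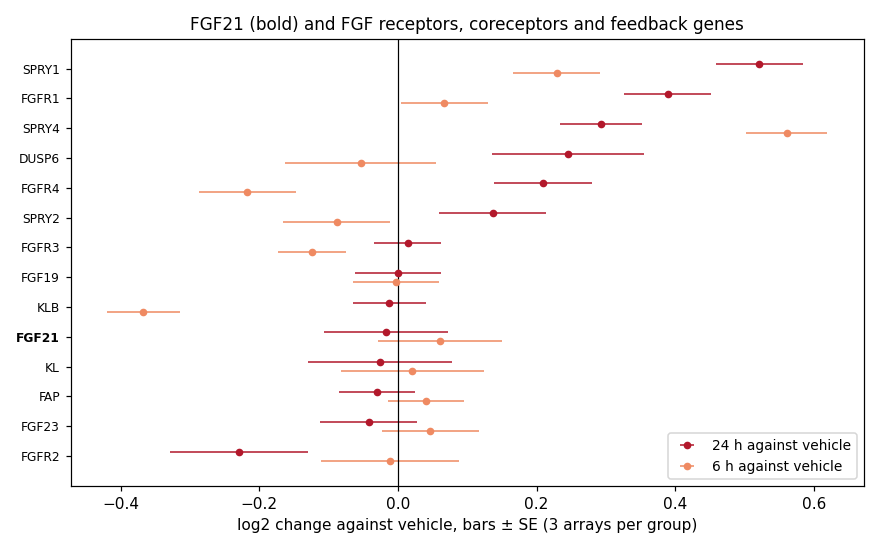
Log2 change against vehicle, with SE bars, of FGF21 and of FGF receptors, klothos and related genes at 24 h and 6 h of GW7647. FGF21 (bold) lies at -0.02 and 0.06, KLB at -0.01 and -0.37 and SPRY4 at 0.29 and 0.56.

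ATF4 target genes are where INHBE and FGF21 can be set beside a known programme, since both are described as responsive to ATF4 in other studies of liver cells. Of 28 measured ATF4 and amino acid response genes, 19 rose and 0 fell at 24 h, where 5.38% of all genes rose and 2.80% fell. At 6 h 5 rose and 0 fell, where 1.64% of all genes rose and 1.91% fell. The median log2 change of the list was 0.78 at 24 h and 0.04 at 6 h. The list was chosen with results of these data known and supports no direction of its own. ATF4 itself rose by 0.88 ± 0.07 at 24 h (adjusted p = 3.28e-05) and had 0.15 ± 0.07 at 6 h (adjusted p = 0.336). ASNS, the asparagine synthetase whose element is printed above, rose by 3.18 ± 0.07 at 24 h (adjusted p = 1.69e-09) and by 0.59 ± 0.07 at 6 h (adjusted p = 0.00133), while its second probe set had 0.16 at 24 h. CTH, which makes cysteine, rose by 2.08 ± 0.09 at 24 h (adjusted p = 2.59e-07) and had 0.35 ± 0.09 at 6 h (adjusted p = 0.0516).

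Some genes of the list rose at both times. The cystine transporter SLC7A11 rose by 1.82 ± 0.09 at 24 h (adjusted p = 8.72e-07) and 1.29 ± 0.09 at 6 h (adjusted p = 1.65e-05), and DDIT4, an inhibitor of mTORC1, by 1.73 ± 0.09 at 24 h (adjusted p = 1.78e-06) and 1.29 ± 0.09 at 6 h (adjusted p = 1.85e-05). DDIT3, which encodes CHOP, had -0.11 at 24 h (adjusted p = 0.426) and 0.02 at 6 h (adjusted p = 0.915). Among the genes whose promoter element is printed above, ASNS rose, whereas CHAC1 had 0.19 (adjusted p = 0.164), ATF3 0.03 (adjusted p = 0.832) and FGF21 -0.02 (adjusted p = 0.941) at 24 h, so 1 of these 4 genes rose at 24 h. At 6 h ATF3 rose by 0.44 ± 0.06 (adjusted p = 0.00268), and its 3 probe sets ranged from -0.005 to 0.44. Between the times 18 of the 28 list genes rose and 1 fell, where 9.23% of all genes rose and 4.57% fell. INHBE differed by 0.01 between the times, and its dependence on ATF4 was not tested.

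**Figure D5:**
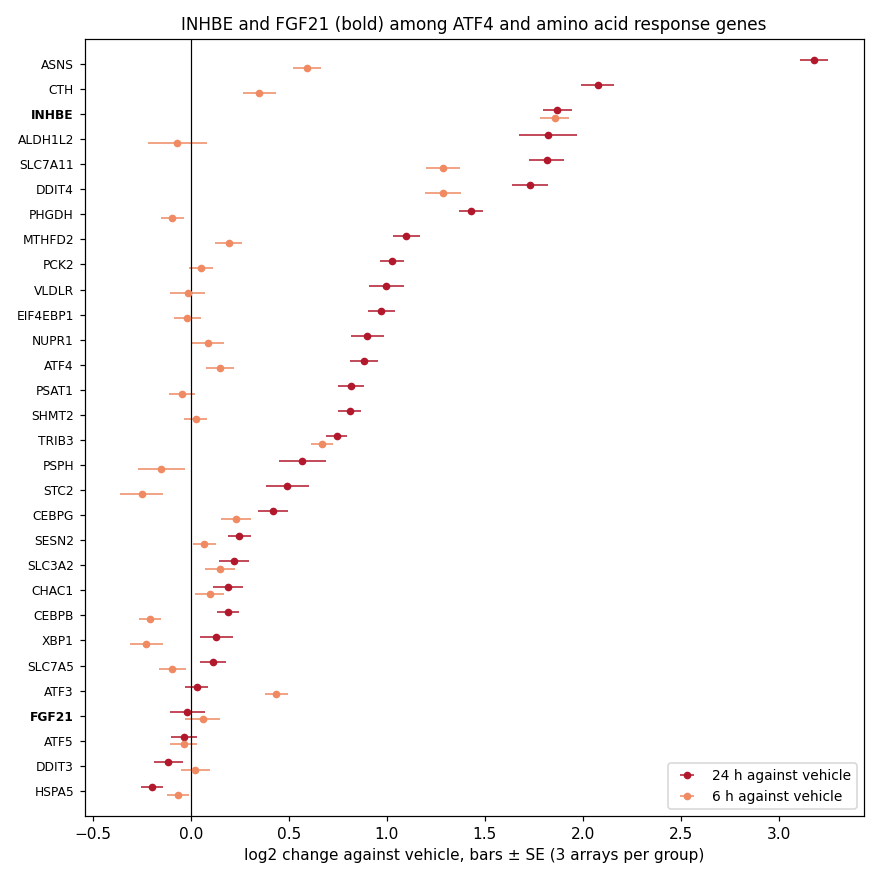
Log2 change against vehicle, with SE bars, of 28 ATF4 and amino acid response genes and of INHBE and FGF21 (bold) at 24 h and 6 h of GW7647. INHBE has nearly equal values at the times (1.87 and 1.86), ASNS has 3.18 and 0.59, and FGF21 is at -0.02 and 0.06.

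The agonist's own receptor and classical targets give the other frame. Of 21 measured, 7 rose and 1 fell at 24 h, where 5.38% of all genes rose and 2.80% fell, and 4 rose and 2 fell at 6 h, where 1.64% rose and 1.91% fell, with a median log2 change of 0.13 at 24 h and 0.05 at 6 h. PLIN2, the lipid droplet coat protein, rose by 1.49 ± 0.06 at 24 h (adjusted p = 2.59e-07) and 1.04 ± 0.06 at 6 h (adjusted p = 8.57e-06), though its second probe set had -0.01 and -0.08. PPARA had -0.06 at 24 h (adjusted p = 0.655) and fell by 0.61 ± 0.06 at 6 h (adjusted p = 3.31e-04). RXRA, its dimer partner, had -0.06 at 24 h (adjusted p = 0.696) and fell by 0.64 ± 0.07 at 6 h (adjusted p = 7.36e-04). At 6 h the 9 PPARA probe sets ranged from -0.74 to -0.01, and the 2 RXRA probe sets from -0.64 to -0.14. VNN1, a pantetheinase, fell by 0.81 ± 0.07 at 24 h (adjusted p = 3.98e-05) and rose by 0.30 ± 0.07 at 6 h (adjusted p = 0.0331). The 6 h call of VNN1 was lost in 6 of 9 fits with 1 array left out (adjusted p up to 0.136). FGF21, counted among PPARα targets in liver, had folds of 0.988 at 24 h and 1.04 at 6 h, where PLIN2 had 2.81 and 2.05.

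Of 21 other proteins with hormone-like roles that liver secretes, 4 rose and 1 fell at 24 h, and 0 were called at 6 h, while over all genes 5.38% rose and 2.80% fell at 24 h and 1.64% rose and 1.91% fell at 6 h. ANGPTL8, an inhibitor of lipoprotein lipase activity, rose by 1.22 ± 0.15 at 24 h (adjusted p = 7.58e-04) and had 0.33 ± 0.15 at 6 h (adjusted p = 0.313). IGFBP1, a binding protein of insulin-like growth factors, rose by 1.03 ± 0.17 at 24 h (adjusted p = 0.00352), but its second probe set had -0.01. At 6 h IGFBP1 had -0.26 ± 0.17 (adjusted p = 0.488).

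The genes whose pattern over the 9 arrays was most like that of INHBE were found by Pearson's r, among 69 genes whose group means spanned at least 1 log2 unit. They were SLC2A3 (0.979), a glucose transporter, MT1G (0.965), DDIT4 (0.964), PLIN2 (0.954), SLC7A11 (0.945), MT1F (0.944), BHLHE40 (0.939) and MT1H (0.939), with MT1G, MT1F and MT1H being metallothioneins that bind zinc and copper. The 3 metallothioneins had lower changes at 24 h than at 6 h, at 1.86 and 2.42 for MT1G, whereas PLIN2 and SLC7A11 had higher ones, and INHBE had 1.87 and 1.86. The metallothionein probe sets share probes with related genes. The r values share arrays, treatment and normalization, and describe a common split between treated and vehicle arrays.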

How the data were processed

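The members and the gene lists were chosen with earlier results of these data known. The authors deposited log2 probe set signals of 9 Affymetrix arrays, made with RMA per the submitters' processing notes; for its version, software and build the sources used here give nothing. RMA normalizes arrays to a common distribution, so a shift of most genes cannot be seen. RNA was taken from TRIzol extracts with intact ribosomal bands, per the labels' protocols. Arrays were grouped by treatment and time as labelled.

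Of 54675 probe sets, 62 were controls, 41091 had a single symbol and were used, 1801 had several and 11721 none. The brightest probe set on average stood for each gene (19775 genes); every member probe set was also fitted among all 41091. Of the 41091, 41037 had an Entrez ID in the RefSeq gene list of GRCh38.p14, and 0 symbols changed. No signal filter was applied. Group means were fitted over 9 arrays with limma 3.58.1 in R 4.3.3 (with data.table, version 1.17.8), eBayes defaults, 11 total degrees of freedom, two-sided, with Benjamini-Hochberg adjustment over all genes and calls at an adjusted p under 0.05. Intervals are 95% ones from that fit. An exact permutation test of 3 against 3 cannot go below 0.1. The fit was tested on simulated data. The number of arrays limits the precision, with a median SE of a log2 change of 0.07.

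Named were all members and their probe sets, up to 2 called genes with the largest change per list and comparison, a fixed set (PPARA, ATF4, DDIT3, KLB, FGFR4, ACVR2A, ACVR2B, ACVR1B, ACVR1C, SMAD7, GDF15, INHA) and the 8 genes most like INHBE. ATF3 and CHAC1 were named for their promoter match, and ID1 and ID3 for their calls in the list of genes that activin can raise. Alternatives were each array left out, a replicate block, the compared groups alone, array weights, median centring, quantile normalization, an intensity trend with robust prior, a stricter adjusted p of 0.01, a change of 1.5-fold or more, genes brighter than the median, averaged probe sets, separate probe sets and probe sets without shared probes.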

Additional observations from a re-analysis of the deposited data

Results flagged for a closer look

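FSTL3 is set apart because its effect differed between the 2 times under the test of that difference: the 24 h arrays averaged 7.44 ± 0.01 and the 6 h arrays 7.86 ± 0.04 log2 units (SD, n = 3 each), a difference of -0.42 ± 0.06 (SE; limma, adjusted p = 5.80e-04), with every 24 h array below every 6 h array. It was the 1 of the 6 genes tested that differed so. Groups of 3 arrays are too small for a test of outlying samples.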

How the results depend on the processing

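INHBE kept its direction against vehicle in the 19 alternatives that gave it a value. Its log2 changes were 1.82 to 1.92 at 24 h and 1.81 to 1.90 at 6 h, which are also the ranges with 1 array left out. Between the times it had -0.05 to 0.07 (-0.04 to 0.07 with 1 array left out). INHBE has 1 probe set, so the choices of probe sets could not move these values. Nor could the replicate block, the compared groups alone, the trend with robust prior or the restriction to bright genes. Agreement in those settings was fixed in advance. The values could move with quantile normalization, median centring, array weights and an array left out of the groups compared. Of the other 6 genes 1 was called in each comparison; at 24 h against vehicle the number was 2 with an intensity trend and robust prior and with genes above the median signal, 3 with the mean of all probe sets and with no shared probes, 0 at 1.5-fold or more, and 1 to 2 with 1 array left out (2 without vehicle replicate 2 or 3). At 6 h against vehicle it was 3 with the trend and robust prior, genes above the median, the mean of probe sets and quantile normalization, 2 with array weights, 0 at 1.5-fold or more, and 1 to 2 with 1 array left out (2 without vehicle replicate 2). Between the times it was 0 with no shared probes, which drops the only FSTL3 probe set, and 0 at 1.5-fold or more. The added calls were FST, INHBB at 6 h (adjusted p between 0.0171 and 0.0498) and INHBC at 24 h (0.0232 to 0.0349); FST passed at 0.50 with the mean of probe sets and 0.85 with no shared probes at 24 h, and at 0.42 and 0.54 at 6 h, because these read its other probe sets. Quantile normalization moved all-gene calls between the times to 1457 higher and 1207 lower, against 1826 and 903 as deposited. At 6 h against vehicle 324 genes rose and 377 fell as deposited, 419 and 328 with quantile normalization and 255 and 416 with median centring.

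Replicate numbers did not pair the arrays: same-numbered arrays' deviations correlated between -0.20 and 0.09, over 0.1 in 0 of 9 pairs, and 1 of 9 arrays correlated best with its own number. With a replicate block, the count of called genes was 1 in each comparison, with INHBB at 24 h (adjusted p = 0.0165) and FSTL3 at 6 h (0.0118) and between the times (0.00263) still called; over probe sets the block ended the 24 h call of the second INHBC probe set (0.0594). Limits are 3 arrays a group, one vehicle group of unstated duration, RNA without protein, and compressed low signals such as INHBA.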
